A study of Mus musculus with 20 samples.

Results

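The SR and hnRNP splicing factors were taken as the protein-coding mouse genes whose GRCm38 symbol is Srsf followed by a number or begins with Hnrnp. Of 31 such genes in the GENCODE M21 annotation, 30 had transcripts in the files, 11 SR genes and 19 hnRNP genes, out of 32991 genes measured (18764 protein-coding). Hnrnpa3 was not analysed here. Colon RNA from 20 male C57BL/6 mice in 4 groups of 5 was sequenced, with 1 library per mouse, to ask how a Chinese medicinal preparation, Pien Tze Huang (PZH), alters the colon of mice with colitis-associated cancer. All mice were gavaged for 91 days, the Control and Model groups with double distilled water and the PZH and Model + PZH groups with PZH at 250 mg/kg/d. The Model and Model + PZH groups had also received the carcinogen azoxymethane (AOM) at 12.5 mg/kg and, from 7 days later, repeated cycles of 5 days on 2% dextran sodium sulfate (DSS), which injures the colon lining, and 2 weeks on water. The Control and PZH groups had received neither AOM nor DSS.

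SR proteins bind exons through RNA recognition motifs and recruit the splicing machinery through a tail rich in arginine and serine. hnRNP proteins coat newly made RNA, and many of them oppose SR proteins by silencing splice sites, so the balance of both families helps to set which exons a cell keeps. Many members control their own amount by splicing their RNA into forms with an early stop codon, which the cell then destroys by nonsense-mediated decay, and both families are often raised in growing and tumour tissue.

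The values were FPKM (fragments per kilobase of transcript and per unit of sequencing depth), which correct for transcript length, and the value of a gene was the sum over its annotated transcripts. The estimated depth was 15.3 to 19.4 M fragments per mouse, and the members together held 0.33 to 0.53% of the FPKM of all genes. The extraction label names the abdominal aorta as the dissected tissue while the other labels name the colon. The summed FPKM of 12 colon epithelium markers was 3001 or more in every mouse, although Epcam, one of them, was listed at 0 in 13 mice. The Model + PZH mouse 35 was singled out by its effect on the calls, and it is not among the outlying mice listed at the end. Without it, the number of genes called (adjusted p under 0.05) between Model + PZH and Model went from 1 to 808. Values are therefore also given without this mouse. Its summed FPKM of 12 leukocyte markers was 787.2, against 327.8 to 484.5 in the other Model + PZH mice. Its colon epithelium marker sum, 3889, was the lowest of that group. No source used here names a sequencing batch. In tissue RNA, fewer cells of a type and less RNA per cell cannot be told apart.

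A set of 4 members whose transcripts differ by a defined exon or stretch, and for which shares by exon are compared further on, is shown first. Positions are on GRCm38, and each stretch is written 5′ to 3′ on the strand of its gene. In Srsf6, which encodes an SR protein, transcript Srsf6-201 carries an exon of 268 bases that the main transcript Srsf6-203 lacks. Its first 152 bases (chr2:162932815-162932966, plus strand) run to an early stop codon, which is in capitals. The exon is annotated as part of a nonsense-mediated decay transcript.
Srsf6: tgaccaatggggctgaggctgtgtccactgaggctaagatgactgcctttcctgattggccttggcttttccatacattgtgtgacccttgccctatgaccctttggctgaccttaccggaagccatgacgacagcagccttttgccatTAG

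In Hnrnpab, Hnrnpab-203 carries an exon of 141 bases (chr11:51601750-51601890, minus strand), or 47 whole codons, that Hnrnpab-201 lacks.
Hnrnpab: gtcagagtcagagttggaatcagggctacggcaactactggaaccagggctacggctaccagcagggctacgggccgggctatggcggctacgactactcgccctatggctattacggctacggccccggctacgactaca

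Hnrnpr-202 begins its reading frame in an exon that Hnrnpr-204 lacks, and the 157 coding bases of that exon (chr4:136314099-136314255, plus strand) are shown with the start codon in capitals. Hnrnpm-206 contains a stretch of 117 bases (chr17:33666530-33666646, minus strand), 39 whole codons, that Hnrnpm-201 lacks.
Hnrnpr: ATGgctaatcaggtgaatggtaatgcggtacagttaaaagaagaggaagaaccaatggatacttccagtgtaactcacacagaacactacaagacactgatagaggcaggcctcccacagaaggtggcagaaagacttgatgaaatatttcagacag
Hnrnpm: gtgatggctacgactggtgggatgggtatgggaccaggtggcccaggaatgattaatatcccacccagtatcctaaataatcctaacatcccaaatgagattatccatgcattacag

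The highest mean level over all mice was that of Hnrnpa2b1, an hnRNP that also sorts RNA for transport, at 373.8 FPKM (312.0 to 445.5). It was followed by Hnrnpab at 226.6 FPKM (151.0 to 384.7) and Hnrnpk, which binds C-rich RNA and DNA, at 138.8 FPKM (107.0 to 156.7). The highest SR gene was Srsf2, which favours exon inclusion, at 119.5 FPKM. The lowest members were Srsf12 at 0.10 FPKM, Srsf7 at 5.42 FPKM (2.06 to 15.8) and Hnrnph3 at 10.3 FPKM (7.48 to 13.5). Srsf12 rested on an estimated 0 to 7.8 fragments per mouse and did not reach the level needed for a test (0.5 FPKM in at least 5 of 10 mice), so 29 members were tested. Srsf7 was represented by 1 of its 8 annotated transcripts, Srsf3 by 5 of 10 and Hnrnpm by 7 of 15, and the others were not analysed here, so sums for these genes are incomplete.

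**Figure D1:**
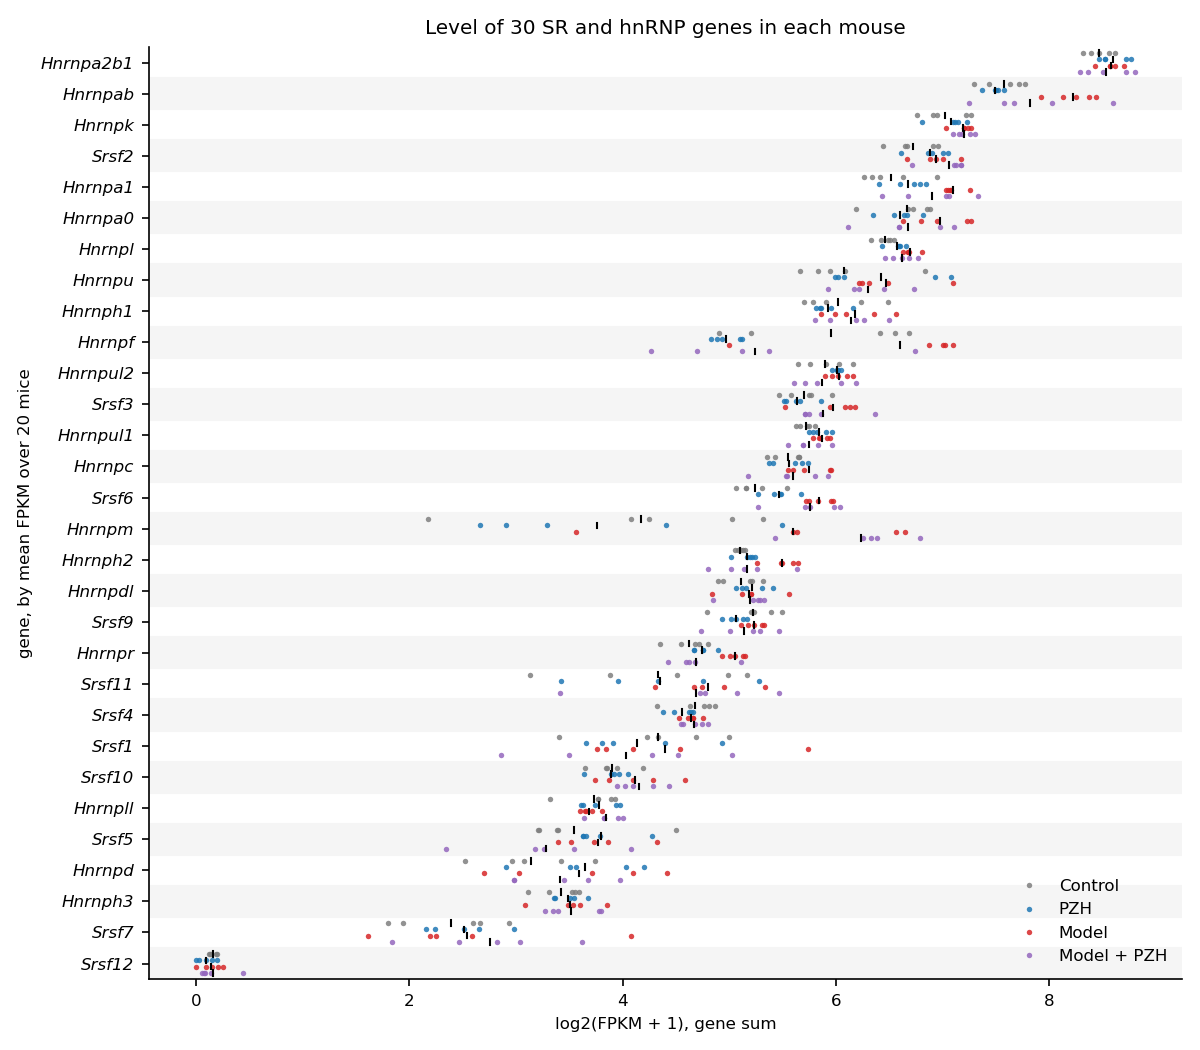
Level of the 30 genes in each mouse as log2(FPKM + 1), ordered from the highest to the lowest mean FPKM, with 1 point per mouse coloured by group and a black tick at the group mean. Hnrnpm, Hnrnpf, Srsf1, Srsf11 and Srsf7 spread widely within groups, whereas Hnrnpa2b1 and Hnrnpul1 lie within narrow ranges.

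The spread between single mice differed strongly between members. The highest mouse exceeded the lowest by a factor of 1.34 for Hnrnpul1, 1.40 for Hnrnpl and 1.43 for Hnrnpa2b1. The factor was 5.54 for Srsf11, 7.45 for Hnrnpf, 7.70 for Srsf7, 8.38 for Srsf1 and 31.0 for Hnrnpm.

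Between Model and Control mice, 6 of the 29 members (20.7%) were higher at an adjusted p under 0.05 and none was lower, by limma on log2(FPKM + 1) with Benjamini-Hochberg adjustment over all 15812 genes tested. Over all of those genes, 16.4% were called higher and 7.23% lower, so the share of members called higher lay near that of the background. The 6 were Hnrnpab, Srsf6, Hnrnpa1, Hnrnpr, Hnrnph2 and Hnrnpl, and in each the values of the 5 Model mice lay above those of all 5 Control mice, as did those of 13% of all genes. Among the 29 members, 27 differences were above 0. Their median log2 difference was 0.22, against 0.094 over all genes, and it was 0.22 for the SR genes and 0.24 for the hnRNP genes. When mice were scaled by the median of ratios, which shifted the median of all genes by -0.097, Hnrnph2 and Hnrnpl were no longer called. None of the 29 reached a 2-fold difference with an unadjusted p under 0.05, which 5.85% (higher) and 1.86% (lower) of all genes did.

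Values below follow the order of mouse numbers, which is 17, 37, 41, 48 and 50 for Control and 23, 30, 33, 44 and 52 for Model. Hnrnpab (chr11:51600100-51606847, minus strand) encodes an hnRNP with a pair of RNA recognition motifs. It measured 156.3, 217.9, 209.5, 171.4 and 197.6 FPKM in Control mice and 304.0, 240.9, 277.7, 344.6 and 330.4 FPKM in Model mice. Every Model mouse was thus above the highest Control mouse, and the log2 difference was 0.65 ± 0.13 (SE, adjusted p = 0.0052, limma).

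Srsf6 (chr2:162931528-162937121, plus strand) measured 32.4, 34.6, 45.4, 38.5 and 34.7 FPKM in Control mice and 52.8, 55.9, 51.8, 61.7 and 60.9 FPKM in Model mice. The log2 difference was 0.60 ± 0.11 (SE, adjusted p = 0.0027, limma), the smallest adjusted p of any member. It was the only SR gene called. Hnrnpa1 (chr15:103240432-103246692, plus strand), an abundant hnRNP that often silences exons, measured 75.5, 122.0, 84.2, 80.0 and 98.1 FPKM in Control mice and 151.9, 134.5, 132.8, 129.6 and 131.1 FPKM in Model mice. The log2 difference was 0.58 ± 0.13 (SE, adjusted p = 0.0093, limma). With transcripts annotated as protein-coding alone, the Hnrnpa1 difference was 0.65 and the adjusted p 0.159.

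Hnrnpr (chr4:136310942-136359447, plus strand), which is related to the RNA-binding protein Syncrip, measured 22.4, 25.3, 26.8, 19.4 and 24.6 FPKM in Control mice and 32.2, 29.5, 31.1, 34.4 and 33.9 FPKM in Model mice. The log2 difference was 0.43 ± 0.10 (SE, adjusted p = 0.012, limma). Hnrnph2 (chrX:134601179-134607060, plus strand), which binds G-rich runs, lay within a narrow range in Control mice at 32.9, 34.5, 34.0, 32.1 and 33.4 FPKM. In Model mice it measured 48.9, 37.3, 43.8, 47.5 and 44.1 FPKM, a log2 difference of 0.39 ± 0.089 (SE, adjusted p = 0.01, limma).

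Hnrnpl (chr7:28808541-28822266, plus strand), which binds CA repeats, showed the smallest difference of the 6. It measured 79.1, 84.8, 92.4, 89.8 and 88.8 FPKM in Control mice and 110.7, 101.7, 101.2, 101.2 and 98.1 FPKM in Model mice, a log2 difference of 0.24 ± 0.077 (SE, adjusted p = 0.048, limma). Its call was the least stable, with an adjusted p under 0.05 in 3 of 16 alternatives and a range from 0.0082 to 0.279. Leaving out any one of the 10 mice raised it above 0.05.

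**Figure D2:**
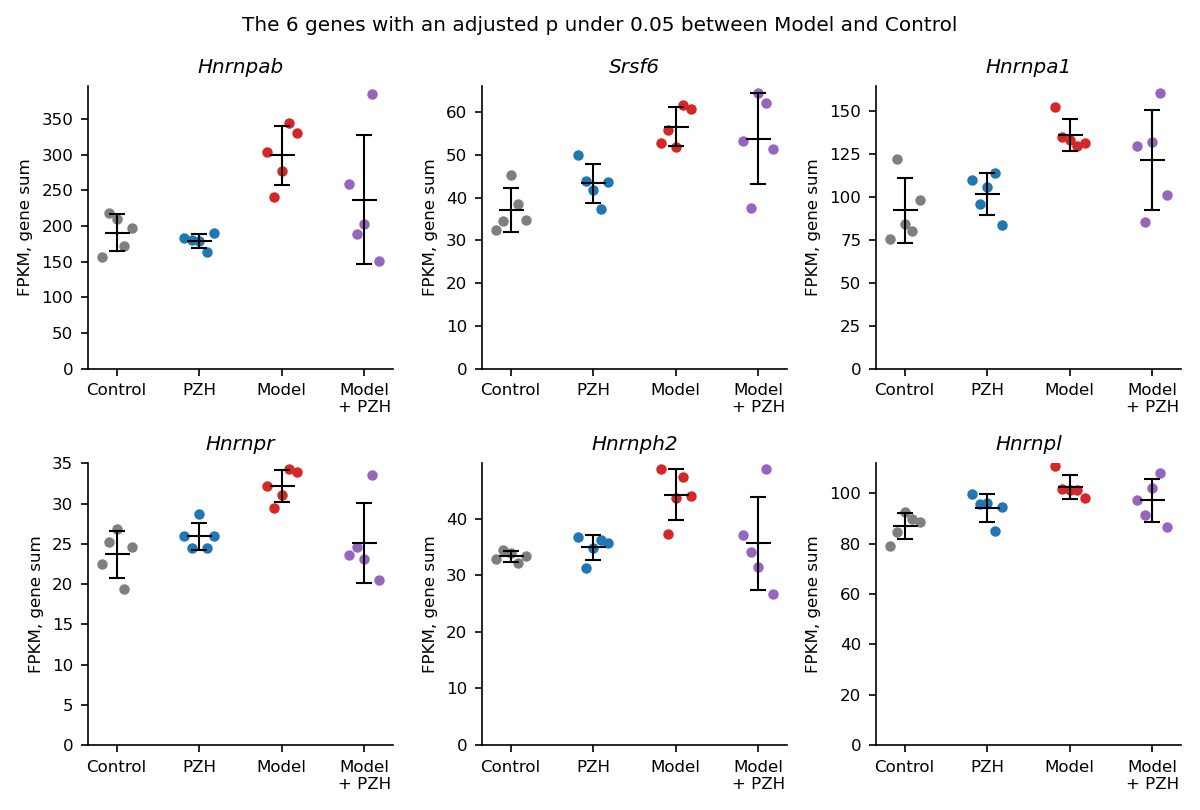
FPKM of the 6 genes called between Model and Control in each mouse of the 4 groups, with the mean and SD of 5 mice in black and the vertical axis from 0. In every panel the 5 Model mice lie above the 5 Control mice, and the Model + PZH mice spread across both, with mouse 35 at 384.7 FPKM for Hnrnpab.

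The remaining 23 members tested were not called. The largest difference among them was that of Hnrnpm, at 1.43 ± 0.68 (SE, adjusted p = 0.156, limma), and its values in Model mice ran from 10.8 to 99.5 FPKM. It was called without Model mouse 44 (1.94 ± 0.57, SE, adjusted p = 0.046, limma), and Srsf3 without Model mouse 30 (0.38 ± 0.12, SE, adjusted p = 0.043, limma). Hnrnpf had a difference of 0.65 ± 0.48 (SE, adjusted p = 0.369, limma). At the other end, Srsf9 and Srsf1 differed by 0.01 ± 0.13 and 0.06 ± 0.40 (SE), and Srsf4 and Hnrnpll by -0.04 ± 0.11 and -0.05 ± 0.13 (SE).

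Markers of several cell types differed between the same groups. The summed FPKM of 12 leukocyte markers was 187.3 to 413.6 in Control and 433.4 to 922.2 in Model mice, with 6 markers higher, while S100a8 and S100a9 were listed at 0 in 1 and 2 Control mice. The summed FPKM of 10 smooth muscle markers was 2702 to 6350 in Control and 1166 to 2078 in Model mice, with 9 lower. The sum of 12 markers of proliferating cells was 156.1 to 305.0 in Control and 237.2 to 371.8 in Model mice, with 5 higher, among them Mcm3 and Mcm2 of the replication helicase. Of the colon epithelium markers, 3 of 11 tested were lower, of the markers of enteric neurons and glia 1 was higher and 4 lower of 9 tested, and of the endothelium markers 3 of 8 were higher. The part of these cell types in the differences of the members was not tested.

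Genes that work with the members were counted in the same comparison, to be read against the 16.4% of all genes called higher, the 7.23% called lower and the median log2 difference of 0.094. Of 46 core spliceosome genes, 13 (28.3%) were higher and none lower, among them Usp39 by 0.69, Prpf4 by 0.60 and Prpf31 by 0.54 on the log2 scale. The median log2 difference of that list was 0.28. Of 24 hnRNP-type proteins with other symbols, 3 (12.5%) were higher, namely Nono (0.50), Ilf2 (0.47) and Ptbp3 (0.40), with a list median of 0.28. Of 12 genes listed as SR protein kinases and carriers only Rnps1 (8.33%) was higher, by 0.51. Rnps1 itself is neither a kinase nor a carrier, so no kinase or carrier of this list was called. Of 22 SR-related proteins only Son (4.55%), which resides in nuclear speckles, was higher, by 0.70. These 3 shares lay below that of all genes.

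The list of nonsense-mediated decay and the exon junction complex had 1 call among 16 genes (6.25%), Magohb, which was lower by a log2 difference of -0.62. Among 24 tested of 32 tissue-type splicing regulators, Rbm24 (1.05), Rbm20 (0.73) and Nova2 (0.43) were higher and Celf3 was lower (-0.68). None of these genes was called between PZH and Control or between Model + PZH and Model.

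Between PZH and Control mice none of the 29 members was called by limma, as for 0% (higher) and 0.00645% (lower) of the 15506 genes tested, and 1 member had an unadjusted p under 0.05, as had 4.34% (higher) and 4.5% (lower) of all genes. None met the rule of a 2-fold difference with an unadjusted p under 0.05, which 0.368% (higher) and 0.322% (lower) of all genes met. The member with an unadjusted p under 0.05 was Hnrnpf, an hnRNP related to Hnrnph1, at 84.0, 102.1, 92.8, 28.9 and 35.9 FPKM in Control mice. In PZH mice, in the order 8, 14, 27, 46 and 53, it measured 33.6, 27.4, 33.3, 29.6 and 28.5 FPKM. The Control mice fell into 3 high and 2 low values and the PZH mice were all low, but the groups overlapped (log2 difference -0.98 ± 0.33, SE, adjusted p = 0.512, limma). The next smallest p-values belonged to Srsf6, with 0.22 ± 0.11 (SE, adjusted p = 0.586, limma), and Hnrnpd, with 0.50 ± 0.28 (SE, adjusted p = 0.622, limma). Srsf6 measured 49.96, 43.9, 41.8, 37.5 and 43.6 FPKM in the PZH mice, and Hnrnpd, which binds AU-rich RNA, 15.3, 17.4, 10.8, 6.5 and 10.4 FPKM against 4.8 to 12.3 FPKM in Control mice.

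Between Model + PZH and Model mice none of the 29 members was called either (0.00629% of 15888 genes higher, 0% lower), and 2 had an unadjusted p under 0.05, as had 3.51% (higher) and 8.21% (lower) of all genes. The 2-fold rule with an unadjusted p was met by 1 member, Hnrnpf, and by 0.39% (higher) and 2.01% (lower) of all genes. The median log2 difference of the members was -0.093, against -0.038 over all genes. Hnrnpr measured 23.7, 24.7, 23.1, 33.6 and 20.5 FPKM in the Model + PZH mice 2, 13, 15, 35 and 36. Mouse 35 lay within the Model range and the other 4 lay below the lowest Model mouse (29.5 FPKM), which gave -0.36 ± 0.13 (SE, adjusted p = 0.358, limma). Without mouse 35 the difference was -0.47 ± 0.093 (SE, adjusted p = 0.023, limma), the only member called in that fit, in which 808 of 15639 genes were called.

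Hnrnph2 measured 37.2, 34.1, 31.4, 48.8 and 26.8 FPKM in the Model + PZH mice, where again mouse 35 lay within the Model range and the other 4 lay below the lowest Model mouse (37.3 FPKM). The difference was -0.33 ± 0.15 (SE, adjusted p = 0.434, limma). Without mouse 35 it was -0.44 ± 0.12 (SE, adjusted p = 0.066, limma). Hnrnpab measured 258.5, 189.1, 202.4, 384.7 and 151.0 FPKM, so that mouse 35 held the highest level of all 20 mice. Its difference from Model was -0.40 ± 0.23 with that mouse and -0.59 ± 0.16 without it (SE, adjusted p = 0.51 and 0.07, limma). Hnrnpf measured 106.0, 18.3, 33.7, 40.4 and 24.9 FPKM in Model + PZH mice and 136.2, 30.8, 116.1, 128.6 and 127.1 FPKM in Model mice. In each group 1 mouse lay with the other group, and the difference was -1.36 ± 0.51 (SE, adjusted p = 0.371, limma).

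**Figure D3:**
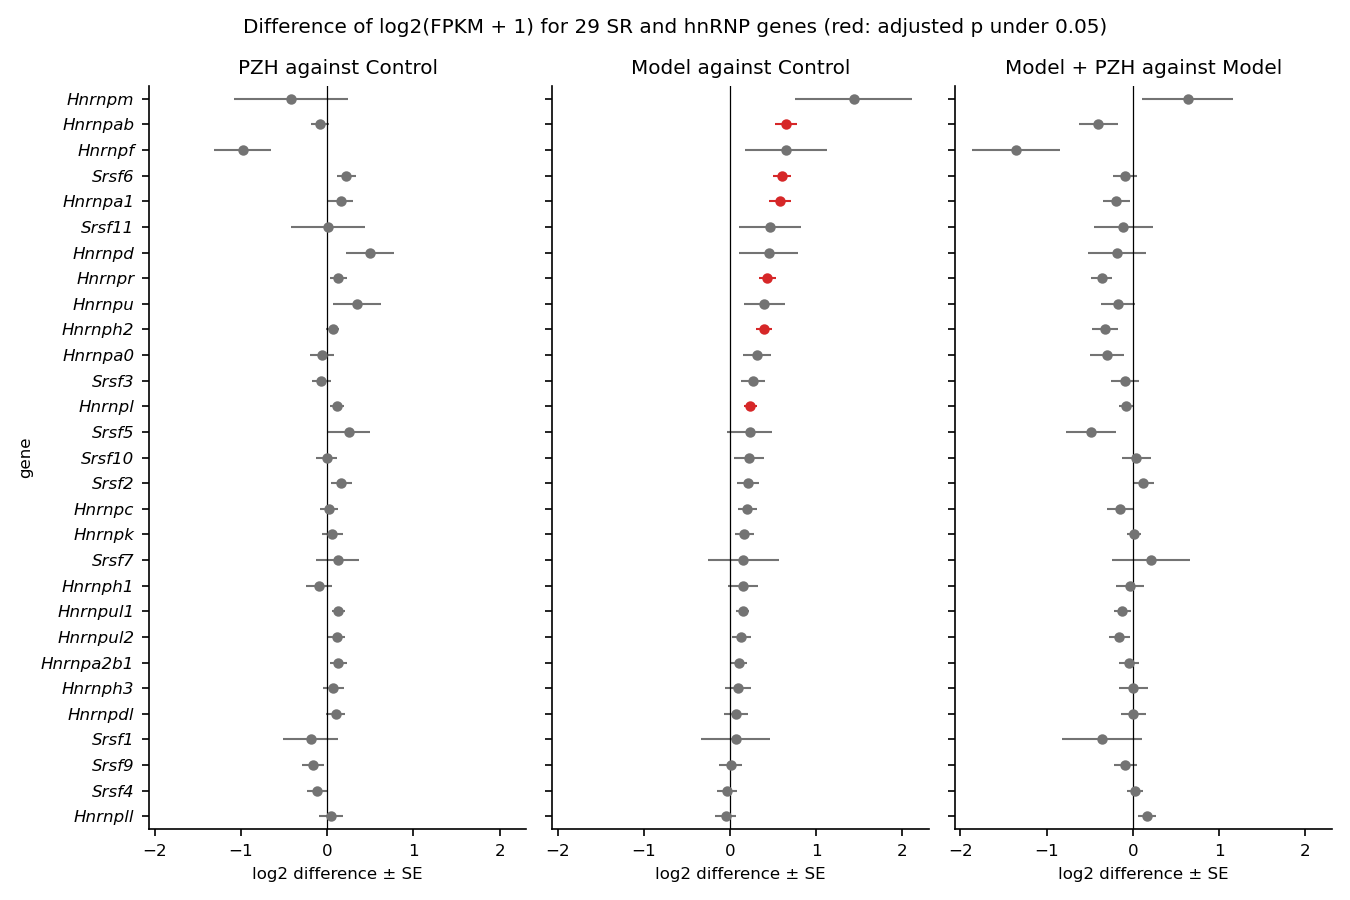
Log2 differences (points) with their SE (bars) for the 29 tested genes in 3 comparisons, ordered by the difference between Model and Control, with genes at an adjusted p under 0.05 in red. Red points appear only between Model and Control, where 27 of 29 points lie above 0. Between Model + PZH and Model 9 of 29 lie above 0.

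Model + PZH mice were also compared with the Control mice, which are the same animals as in the comparison of Model with Control. None of the 29 members was called (1.55% of 15616 genes higher, 0.871% lower), and 3 had an unadjusted p under 0.05, as had 12.9% (higher) and 7.93% (lower) of all genes. The 2-fold rule with an unadjusted p was met by 1 member, Hnrnpm, and by 2.47% (higher) and 1.06% (lower) of all genes. Hnrnpm, which binds GU-rich RNA, showed the largest difference. It measured 31.6, 3.5, 18.02, 38.8 and 15.8 FPKM in Control mice and 109.4, 75.4, 82.3, 42.1 and 79.3 FPKM in Model + PZH mice. The groups did not overlap, as for 4.18% of all genes in this direction, and the log2 difference was 2.07 ± 0.51 (SE, adjusted p = 0.06, limma). Hnrnpm was called when Control mouse 37 was left out (adjusted p = 0.037, limma) and when all 20 mice shared 1 model (adjusted p = 0.046, limma). The shares of all genes called in these fits are not given here.

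Srsf6 measured 53.2, 37.6, 64.5, 62.3 and 51.4 FPKM in Model + PZH mice, a difference of 0.51 ± 0.16 from Control (SE, adjusted p = 0.104, limma). It was called without Model + PZH mouse 13 (adjusted p = 0.038, limma) and with all 20 mice in 1 model (adjusted p = 0.018, limma), again without the share of all genes given. Srsf2 measured 142.7, 136.4, 143.3, 138.3 and 103.8 FPKM against 85.6, 122.8, 119.4, 99.3 and 100.4 FPKM in Control mice, a difference of 0.33 ± 0.13 (SE, adjusted p = 0.194, limma).

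The interaction asks whether the difference made by PZH was the same in mice with and without AOM and DSS. It was called for none of the 29 members (0.0059% of 16936 genes in each direction), and 3 had an unadjusted p under 0.05, as had 3.41% (above 0) and 6.92% (below 0) of all genes. These were Hnrnpr (-0.49 ± 0.16), Hnrnph2 (-0.39 ± 0.17) and Hnrnpul1 (-0.25 ± 0.11), with SE and adjusted p-values by limma of 0.358, 0.442 and 0.457. Without mouse 35, Hnrnpr (-0.60 ± 0.13, SE, adjusted p = 0.015) and Hnrnph2 (-0.51 ± 0.13, SE, adjusted p = 0.044) were called by limma, among 476 of 16814 genes. In PZH mice Hnrnpr measured 25.9, 24.5, 28.7, 24.5 and 26.0 FPKM and Hnrnph2 36.8, 31.3, 34.9, 36.2 and 35.7 FPKM.

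The mix of transcripts within each gene was described by the share of the gene's FPKM held by its main transcript, the one with the highest mean FPKM. Srsf3-202 (94.1%) and Srsf9-201 (98.5%) dominated their genes, and Hnrnpa0, Hnrnpul2 and Srsf7 had 1 transcript. In contrast, Hnrnph3-203 held 20.6% and Srsf5-202 22.1% of its gene. For Hnrnpl, Hnrnph1 and Hnrnpdl the main transcript was not annotated as protein-coding, and transcripts of noncoding classes held 53.6, 92.3 and 66.8% of the FPKM of these genes.

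**Figure D4:**
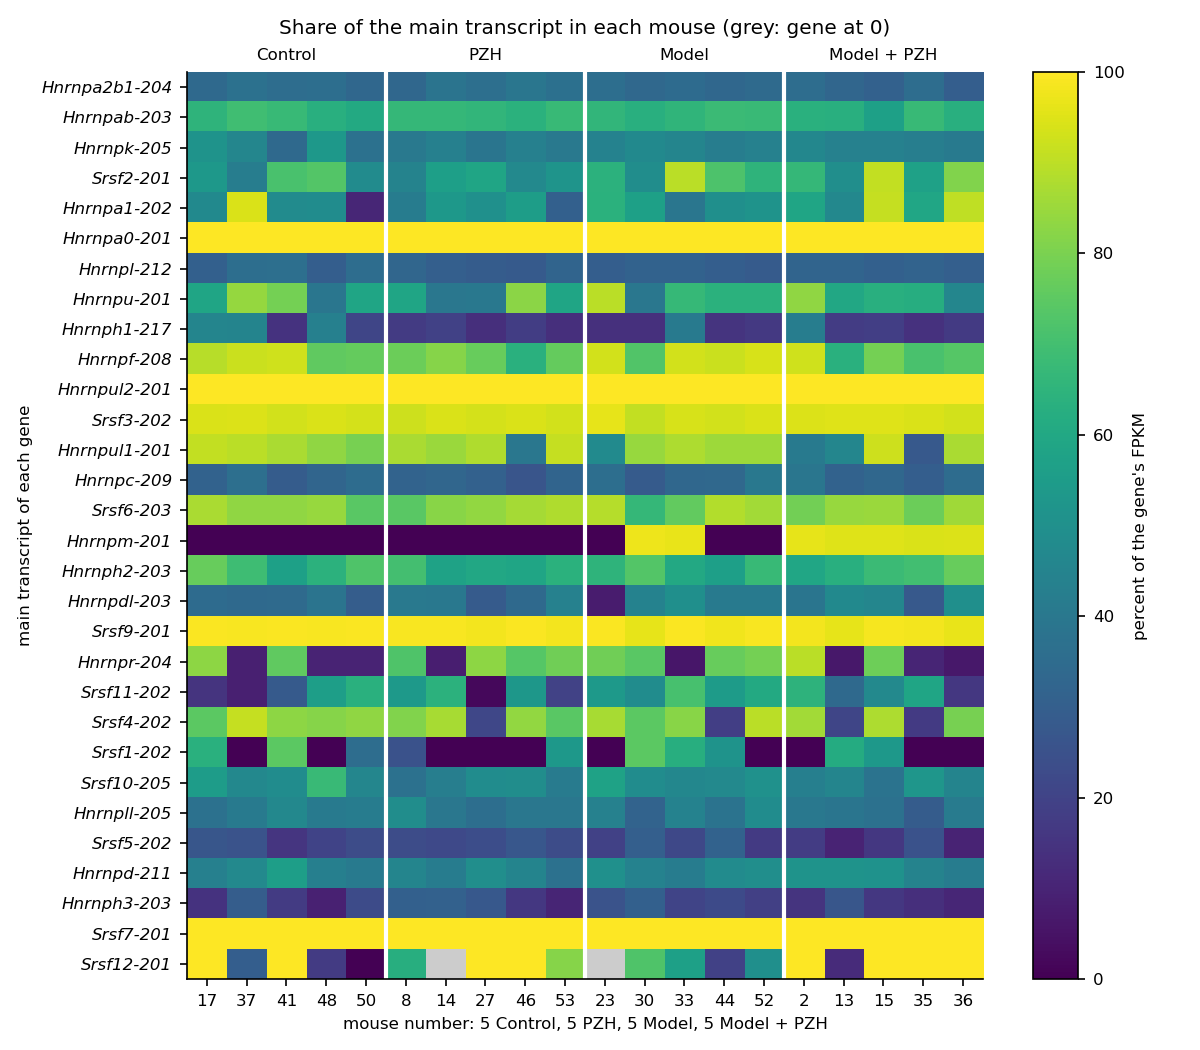
Share of each gene's FPKM held by its main transcript, as a colour from 0 to 100%, with genes in rows by mean level and the 20 mice in columns by group. Of the 27 genes with more than 1 transcript, 6 span under 15 points between the lowest and the highest mouse and 14 over 30 points. Hnrnpm-201 is at 0% in 13 mice and above 90% in 7, and Hnrnpr-204 and Srsf1-202 alternate between high and low within every group.

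No member tested changed its main transcript share at an adjusted p under 0.05 by limma on the log2 ratio of the main to the other transcripts. Hnrnpm was not tested in PZH or Model against Control, because Hnrnpm-201 reached 0.5 FPKM in too few of those mice. Shares were not tested between Model + PZH and Control. In PZH against Control, 24 members were tested and 2 had an unadjusted p under 0.05 (0.0124% of 8038 genes called higher, 0.0249% lower). An unadjusted p under 0.05 was found for 1.99% (higher) and 3.23% (lower) of these genes. The 2 members were Hnrnph1 (-1.26 ± 0.46) and Hnrnpf (-1.07 ± 0.45), given as log2 ratios with SE. The share of Hnrnph1-217 was 45.4, 45.2, 14.52, 43.6 and 20.9% in Control mice and 17.2, 19.4, 13.6, 18.1 and 13.3% in PZH mice. That of Hnrnpf-208 was 89.3, 91.9, 92.6, 75.6 and 76.5% in Control mice and 77.3, 82.0, 76.8, 63.6 and 76.5% in PZH mice. In both genes 3 Control mice had high shares, but these were not the same 3 mice.

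In Model against Control, 1 of 24 members had an unadjusted p under 0.05 for the main transcript share (0.221% of 8153 genes called higher, 0.0491% lower), as had 5.67% (higher) and 3.61% (lower) of these genes. It was Srsf11, with 14.9, 8.7, 28.3, 56.2 and 63.5% in Control and 54.0, 48.7, 70.8, 55.0 and 60.7% in Model mice (log2 ratio 1.47 ± 0.66, SE, adjusted p = 0.536, limma). Hnrnph1 had the next smallest p, with 13.7, 13.8, 41.1, 14.96 and 16.6% in Model mice (-1.03 ± 0.56, SE, adjusted p = 0.627, limma).

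In Model + PZH against Model, 2 of 26 members had an unadjusted p under 0.05 for the main transcript share (0.0121% of 8280 genes called higher, 0.0362% lower), as had 2.46% (higher) and 4.6% (lower) of these genes. Hnrnpm-201 held 0, 97.3, 96.5, 0 and 0% of Hnrnpm in Model mice and 96.2, 95.3, 95.3, 94.5 and 94.6% in Model + PZH mice. The log2 ratio was 5.78 ± 2.32 (SE, adjusted p = 0.698, limma), and the groups overlapped through mice 30 and 33. Hnrnpm-201 met the filter of 0.5 FPKM in at least 5 mice only with the Model + PZH mice, where it was high. The size of the ratio also rests on the 0.5 FPKM added to values of 0, so it is given as a description. Hnrnpf-208 held 93.1, 72.7, 93.1, 92.0 and 93.96% of Hnrnpf in Model mice and 92.9, 63.4, 79.0, 71.4 and 73.8% in Model + PZH mice (-1.43 ± 0.62, SE, adjusted p = 0.698, limma).

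The share of noncoding classes, which include nonsense-mediated decay and retained intron transcripts, was likewise called for no member by limma. An unadjusted p under 0.05 was found for 0 of 20 members in PZH against Control, 5 of 20 in Model against Control (1 higher, 4 lower) and 3 of 22 in Model + PZH against Model (all higher). The percentages of all genes called higher and lower were 0.0356 and 0.0178% of 5613, 0.0357 and 0.143% of 5604, and 0.0172 and 0.0172% of 5799, respectively. Those with an unadjusted p under 0.05 were 4.04 and 1.76%, 3.43 and 6.55%, and 5.6 and 1.71%. The members counted in Model + PZH against Model include Hnrnpc, whose noncoding part was low, as described further on. In PZH against Control the smallest p-values were those of Hnrnpm, whose share was 4.1 to 5.2% in Control and 3.6 to 34.99% in PZH mice, and Srsf5 (adjusted p = 0.859 for both, limma).

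Between Model and Control the smallest p for the noncoding share was that of Hnrnpr, which held 0.85, 3.4, 4.4, 3.4 and 1.5% in Control and 4.4, 7.6, 7.7, 6.1 and 7.5% in Model mice (0.87 ± 0.28, SE, adjusted p = 0.313, limma). The groups overlapped only in Control mouse 41 and Model mouse 23. This noncoding part includes the nonsense-mediated decay transcript Hnrnpr-206, described further on, so both differences rest in part on the same low values. The 4 with a lower share were Srsf5, Hnrnpm (-1.53), Srsf11 (-1.24) and Hnrnpl (-0.50, log2 ratios). Srsf5, an SR gene, held 41.6, 50.1, 62.4, 55.7 and 34.7% in Control and 28.3, 36.9, 39.5, 29.5 and 31.2% in Model mice (-0.87 ± 0.32, SE, adjusted p = 0.39, limma). In Model + PZH mice Srsf5 held 47.3, 60.6, 52.1, 33.7 and 53.9%, a log2 ratio of 0.89 ± 0.30 against Model (SE, adjusted p = 0.614, limma). Hnrnpc, which packages new transcripts, held 1.8, 0.99, 1.2, 1.5 and 1.8% in Model + PZH mice against 0.36 to 1.1% in Model mice (0.70 ± 0.23, SE, adjusted p = 0.614, limma). Its mean gene level was 48.1 FPKM in Model + PZH and 53.1 FPKM in Model mice, so its noncoding part lay near the filter of 0.5 FPKM. With single mice left out in turn, Hnrnpc could be tested in only 5 of the fits. The ratio also rests on the 0.5 FPKM added to each part, so it is given as a description.

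The exons shown above gave a share of the gene's FPKM in transcripts that contain them. The 152 bases of Srsf6 were held by the nonsense-mediated decay transcript Srsf6-201 and also by Srsf6-202 and Srsf6-204, annotated as protein-coding and as a retained intron. These transcripts together were 17.4% ± 4.8 of Control, 16.9% ± 5.3 of PZH, 18.8% ± 9.6 of Model and 17.7% ± 4.0 of Model + PZH FPKM (SD, n = 5). Srsf6-201 alone held 12.3% ± 7.3, 11.0% ± 4.3, 16.0% ± 9.2 and 13.3% ± 3.1, in the same order of groups. The gene rose in Model mice, and both mean shares differed between Model and Control by less than the SD within either group. The 141-base exon of Hnrnpab was in 69.99% ± 6.7, 69.8% ± 3.9, 69.4% ± 5.9 and 65.3% ± 5.9, in the same order of groups.

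Transcripts that switched between mice were counted by a rule set after these values had been seen, namely a share under 15% in at least 1 mouse and over 60% in another, in genes with at least 5 FPKM in every mouse. Of 23 members with more than 1 transcript that met this level, 7 (30.4%) had such a transcript, against 19.1% of 5089 genes. They were Hnrnpa1, Hnrnpdl, Hnrnpr, Hnrnpul1, Srsf1, Srsf11 and Srsf4. A gene with more transcripts has more chances to meet this rule, and members and all genes were not matched for that number. In Hnrnpr the pattern was complete, as Hnrnpr-202 was over 60% in 8 mice and under 15% in the other 12, and Hnrnpr-204 was the reverse in each mouse.

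The mice with high Hnrnpr-202 were 3 Control, 1 PZH, 1 Model and 3 Model + PZH mice. Its level was 13.7 to 19.2 FPKM in the 3 Control mice and 1.4 and 1.9 FPKM in the other two. The sum of both transcripts lay between 15.6 and 22.2 FPKM in Control and between 24.1 and 29.01 FPKM in Model mice, and neither transcript was called on its own between these groups. Srsf1-202 was listed at exactly 0 in 10 mice, spread over all 4 groups. Srsf1, the founding SR protein, measured 13.4, 22.3, 16.1, 52.3 and 12.5 FPKM in Model mice and 21.9, 18.4, 31.6, 6.2 and 10.3 FPKM in Model + PZH mice.

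Hnrnpm-201 was listed at 0 in all 5 Control, all 5 PZH and 3 Model mice. It measured 90.9 and 96.0 FPKM in Model mice 30 and 33, and 105.3, 71.9, 78.4, 39.8 and 75.1 FPKM in Model + PZH mice. The other Hnrnpm transcripts together ran from 3.5 to 38.8 FPKM in Control, 5.4 to 44.2 in PZH, 2.5 to 48.6 in Model and 2.3 to 4.3 in Model + PZH mice. Transcripts with the 117-base stretch shown above held 81.4% ± 18.9 of Hnrnpm in Control and 76.2% ± 12.9 in PZH mice (SD, n = 5). They held 54.1% ± 47.6 in Model and 3.0% ± 0.54 in Model + PZH mice (SD, n = 5). In Model mice 30 and 33 they held 1.5 and 2.5%. Between these groups Hnrnpm-201 went from 0 to most of the gene while the sum of the other transcripts was lower, and the gene was represented by 7 of 15 annotated transcripts.

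**Figure D5:**
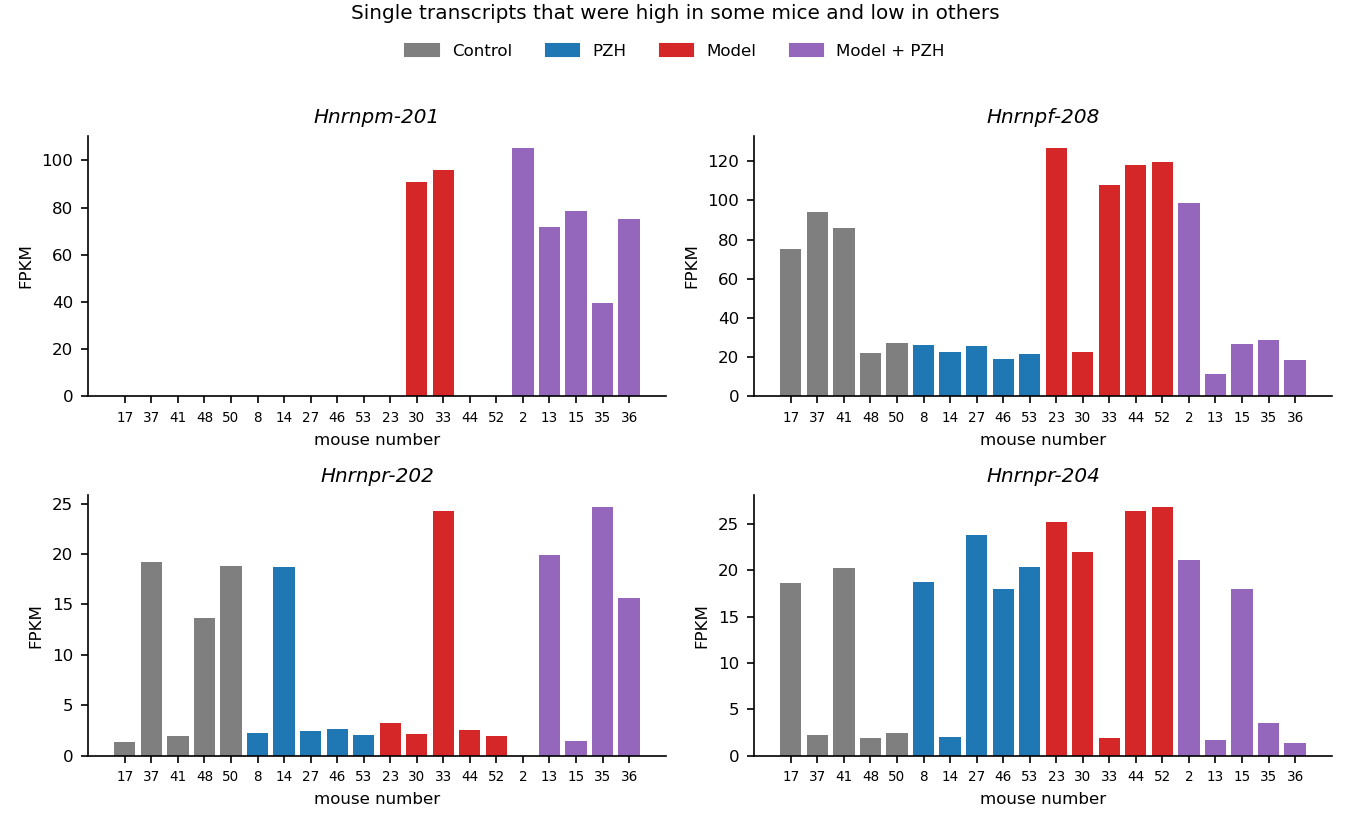
FPKM of 4 single transcripts in each of the 20 mice, as bars from 0 coloured by group and labelled by mouse number. Hnrnpm-201 is at 0 in 13 mice and between 39.8 and 105.3 in 7, Hnrnpr-202 and Hnrnpr-204 are high in opposite mice, and Hnrnpf-208 is low in all 5 PZH mice.

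Hnrnpf-208 was at 75.1, 93.9, 86.0, 21.9 and 27.5 FPKM in Control mice and between 18.8 and 26.0 FPKM in PZH mice. It was at 126.8, 22.4, 108.1, 118.3 and 119.5 FPKM in Model mice and at 98.5, 11.6, 26.6, 28.9 and 18.4 FPKM in Model + PZH mice. The other transcripts of Hnrnpf summed to 4.9 to 11.6 FPKM over all mice. Nearly all of the spread of the gene was thus in this transcript of 956 bases.

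At the level of single transcripts, 6 of 148 member transcripts were called higher between Model and Control and none lower, where 5.62 and 2.58% of 29958 transcripts were called by limma. Hnrnpab-201 rose from 49.5 to 76.7 FPKM in Control to 81.7 to 102.6 FPKM in Model mice (0.68 ± 0.14, SE, adjusted p = 0.013, limma). Hnrnpab-203 rose alongside it (0.67 ± 0.15, SE, adjusted p = 0.024, limma), so both forms, with and without the 141-base exon, were higher. Srsf6-203 (0.57), Hnrnpl-209 (0.51) and the retained intron transcript Hnrnpa2b1-212 (0.63) were also called.

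The largest transcript difference was that of Hnrnpr-206, a nonsense-mediated decay transcript (1.04 ± 0.21, SE, adjusted p = 0.012, limma). It measured 0.05, 0.76, 0.81, 0 and 0 FPKM in Control and 1.3, 1.6, 1.6, 1.6 and 2.2 FPKM in Model mice, so the fold rests on low values. Hnrnpr-206 passed the filter of 0.5 FPKM in at least 5 mice only through the Model mice, where it was high. Its call is therefore given as a description. No member transcript was called in PZH against Control (0.0168% of 29817 higher, 0.0101% lower) or in Model + PZH against Model (0.00656% of 30501 higher, 0.0131% lower), where 8 of 146 and 10 of 150 had an unadjusted p under 0.05, as had 3.66 and 3.26% (higher and lower) and 3.63 and 5.64% of all transcripts.

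The 250 bases upstream of the RefSeq start were read for the 28 members with an entry (GRCm38.p6). The CCAAT box (letters CCAAT, either strand) was present in 46.4% of these members and in 33.8% of 32851 upstream regions. The GC box (GGGCGG) was present in 82.1 and 32.7%, the TATA box (TATAAA) in 10.7 and 12.4% and the E-box (CACGTG) in 3.57 and 6.02%. Each member entered with a single start, the one nearest its main transcript. The 32851 regions held every listed start and were not limited to protein-coding or expressed genes, so the sets are unlike. This is a description of letters and was given no test.

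The upstream regions of the 4 genes with the largest differences among those called between Model and Control are shown with CCAAT boxes of either strand in capitals. They lie at chr11:51606882-51607131 (minus strand, 3 boxes) for Hnrnpab, chr15:103240147-103240396 (plus strand, 4 boxes) for Hnrnpa1, chr4:136310692-136310941 (plus strand, 4 boxes) for Hnrnpr and chr2:162931258-162931507 (plus strand, 0 boxes) for Srsf6.
Hnrnpab upstream: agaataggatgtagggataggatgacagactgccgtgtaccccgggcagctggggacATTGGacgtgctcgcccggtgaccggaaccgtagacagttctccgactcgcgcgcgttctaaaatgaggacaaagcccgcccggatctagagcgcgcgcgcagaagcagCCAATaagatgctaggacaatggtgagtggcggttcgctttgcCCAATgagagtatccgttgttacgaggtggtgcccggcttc
Hnrnpa1 upstream: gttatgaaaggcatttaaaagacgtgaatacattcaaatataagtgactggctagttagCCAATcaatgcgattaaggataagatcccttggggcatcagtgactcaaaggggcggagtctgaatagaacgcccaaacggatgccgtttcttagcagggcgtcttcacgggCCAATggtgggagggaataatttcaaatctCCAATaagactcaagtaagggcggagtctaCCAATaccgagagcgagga
Hnrnpr upstream: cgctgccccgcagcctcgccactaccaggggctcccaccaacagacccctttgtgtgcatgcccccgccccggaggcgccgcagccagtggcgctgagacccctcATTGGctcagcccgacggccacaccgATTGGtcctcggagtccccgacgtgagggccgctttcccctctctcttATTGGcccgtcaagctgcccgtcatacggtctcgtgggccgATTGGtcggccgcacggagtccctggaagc
Srsf6 upstream: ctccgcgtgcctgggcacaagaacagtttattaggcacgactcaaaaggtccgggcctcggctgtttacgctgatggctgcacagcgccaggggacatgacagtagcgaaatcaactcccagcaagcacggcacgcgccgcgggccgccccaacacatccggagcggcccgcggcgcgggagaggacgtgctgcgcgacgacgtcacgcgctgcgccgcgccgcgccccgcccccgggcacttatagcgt

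Of the remaining named members, the level of Hnrnpa0, a gene with a single transcript, was 71.9, 114.2, 117.1, 104.3 and 101.2 FPKM in Control and 122.4, 109.8, 98.1, 152.8 and 148.9 FPKM in Model mice (0.31 ± 0.16, SE, adjusted p = 0.205, limma). Hnrnpu, which also anchors chromatin, measured 49.8, 55.8, 66.8, 113.0 and 60.6 FPKM in Control and 74.9, 135.5, 73.2, 89.0 and 78.3 FPKM in Model mice (0.40 ± 0.23, SE, adjusted p = 0.251, limma). In each of these genes 1 or more mice of both groups overlapped.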

How the data were processed

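RNA from the colons of 20 mice was sequenced, with 1 library per mouse. Per the labels, ribosomal RNA was depleted, and the paper's methods add a poly(A) selection. The authors filtered reads with NGSQC, aligned them to mm10 with HISAT2, assembled and quantified transcripts with StringTie, which divides fragments among overlapping transcripts, and called transcripts with DESeq. The labels also name limma. The authors deposited FPKM per transcript and no counts. The file headers do not name the unit, which was taken from these methods and the values. Depth was estimated from the step of FPKM multiplied by length, and it limits low genes most.

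FPKM of the 96032 Ensembl transcripts found in GENCODE M21 (GRCm38) were summed per gene. The 22252 assembled transcripts held 12.1% or more of the FPKM of each mouse and entered no gene, so fragments given to them are missing from the sums. Division of fragments with near-identical copies, such as processed pseudogenes, was not examined.

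Values as log2(FPKM + 1) were compared with limma 3.58.1 (intensity trend) in R 4.3.3, with the 10 mice of each comparison, no covariates and two-sided tests. Genes or transcripts needed 0.5 FPKM in at least 5 mice. Benjamini-Hochberg adjustment covered all genes, with 0.05 as the threshold. The interaction used all 20 mice. Shares were tested as log2 ratios of 2 parts with 0.5 FPKM added to each. Genes needed 1 FPKM, and each of the 2 parts 0.5 FPKM, in at least 5 mice. The methods were tested on simulated data. Alternatives were median-of-ratios scaling, other filters and pseudocounts, protein-coding transcripts alone, a 2-fold rule with unadjusted p, 1 model for all mice and leaving out each mouse.

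Members, lists and named genes (those called with the largest change, or else those with the smallest p, the highest and lowest by mean level, and the 3 with the largest ratio of group means among members not already named) were chosen with earlier results of these data known. Upstream sequences were read from RefSeq starts (GRCm38.p6), and exons from the GENCODE M21 transcript sequences (GRCm38). Protein sequences were not used here, and 1 exon is not reported here.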

Additional observations from a re-analysis of the deposited data

Results flagged for a closer look

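In 136 sets of 5 mice (30 genes and 4 exon shares in 4 groups), 16 held a mouse whose gap to the next exceeded 0.71 of the range, where chance gives about 6.8. Among Control mice, Hnrnpu was high in mouse 48 (113.0 FPKM against 49.8 to 66.8) and Srsf5 was high in mouse 50 (21.7 FPKM against 8.22 to 9.53). Among PZH mice, Srsf5 was high in mouse 14 (18.4 FPKM against 11.3 to 12.8), as was the Hnrnpr exon share (86.7% against 11.0 to 17.6).

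Among Model mice, mouse 23 was high for Hnrnpa1 (151.9 FPKM against 129.6 to 134.5) and Hnrnpl (110.7 FPKM against 98.1 to 101.7). Mouse 30 was low for Hnrnpf (30.8 FPKM against 116.1 to 136.2) and high for Hnrnpu (135.5 FPKM against 73.2 to 89.0). Mouse 44 was high for Srsf1 (52.3 FPKM against 12.5 to 22.3) and Srsf7 (15.8 FPKM against 2.06 to 5.02), and mouse 33 for the Hnrnpr exon share (86.6% against 14.1 to 18.1).

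Among Model + PZH mice, mouse 36 was low for Srsf2 (103.8 FPKM against 136.4 to 143.3) and Hnrnpdl (27.8 FPKM against 36.3 to 39.0). Hnrnpf was high in mouse 2 (106.0 FPKM against 18.3 to 40.4), Srsf3 in mouse 15 (81.4 FPKM against 51.2 to 57.0) and Srsf12 in mouse 13 (0.36 FPKM against 0.04 to 0.10).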

How the results depend on the processing

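By the rule of a 2-fold difference with an unadjusted p under 0.05, the 6 members called between Model and Control became 0, and 1 member was found in each of Model + PZH against Model (Hnrnpf) and Model + PZH against Control (Hnrnpm), where none was called. By the same rule 1 of 146, 3 of 148 and 3 of 150 member transcripts were found in PZH against Control, Model against Control and Model + PZH against Model, where 0, 6 and 0 were called. Over all transcripts tested, 0.587% (higher) and 0.584% (lower) met this rule in PZH against Control. In Model against Control 4.25% (higher) and 1.67% (lower) met it, and in Model + PZH against Model 0.679% (higher) and 1.71% (lower). With all 20 mice in 1 model, 2 members were called between Model + PZH and Control in place of 0. With no filter on low values, 2 member transcripts were called between Model and Control in place of 6. For the 1-model fit, the fit without a filter and the fits below that leave out a mouse, the shares of all features called are not given. The fits without Model + PZH mouse 35 given above are the exception. These counts are therefore not read as results about the members.

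Leaving out each mouse in turn gave 5 to 6 members between Model and Control, 0 to 1 in both comparisons of Model + PZH and 0 to 2 for the interaction. For member transcripts between Model and Control it gave 2 to 6, with 3 each without Control mice 17 and 48 and Model mouse 33, and 2 each without Model mice 23, 44 and 52. All other alternatives run kept the counts within 1.5 times, and no named difference turned its direction. No paired analysis was possible because the groups share no mouse numbers.

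Fragments were assigned to transcripts by estimation, so values of single transcripts carry an error that these files do not give. Where the transcripts of a gene differ in length, this error also enters the gene sum and its spread between mice. For a transcript listed at exactly 0 in some mice and high in others, these files do not tell a missing transcript from a failed estimate. Gene sums lack transcripts that were not analysed here. The depth limits Srsf12, at 7.8 estimated fragments or fewer.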
